A study of Rattus norvegicus with 8 samples.

Results

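The genes described are the 4 alpha2delta subunits of voltage-gated calcium channels, Cacna2d1, Cacna2d2, Cacna2d3 and Cacna2d4, with Cacna1d and Cacna1f, the L-type pore subunits best known from the retina. A probe belonged to a gene when its RefSeq accession, version removed, was a transcript of that rat symbol. By this rule 5 of the 6 genes had a probe, of 16581 genes with a symbol on the array, and they had 6 probes of 45598 gene probes. Cacna2d1 had 2 probes, Cacna2d2, Cacna2d3, Cacna2d4 and Cacna1f had 1 each, and no probe was matched to Cacna1d, which is not analysed here. The set was chosen because Cacna2d4 was lower with Klf4, so the values of Cacna2d4 are given as a description with no test.

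The study placed a control plasmid or a Klf4 plasmid, by electroporation in vitro, in retinas dissected from Lister hooded rats on postnatal day 0. The explants were kept in culture for 39 h, and the cells that carried plasmid were then sorted by their GFP fluorescence. RNA of the sorted cells was measured on 4 control and 4 Klf4 single-colour Agilent arrays, numbered 2 to 5 in each group, and both groups were electroporated, cultured and sorted alike. The labels name no promoter for the plasmids and do not say whether the numbers are separate animals or electroporations, and a p-value here therefore reflects the spread among these 8 samples, part or all of which may be technical.

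A voltage-gated calcium channel is built around an alpha1 subunit, which forms the pore and senses voltage. The alpha2delta subunits are extracellular proteins attached to the membrane that bring the channel to the cell surface and to the presynaptic active zone, and the beta subunits do related work from the cytosol. At the ribbon synapse of rods and cones, calcium entry through channels of the Cacna1f pore with the Cacna2d4 subunit drives tonic glutamate release, and loss of either gene disturbs that synapse and vision.

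Signals were put on a log2 scale and the 75th percentile of each array's gene probes was subtracted, so a normalised log2 signal of 0 is that percentile. The percentile itself ranged from 732 to 1718 intensity units over the arrays, and 72.1% to 86.5% of gene spots were well above background, a flag of the scanner software, lowest on Klf4 replicate 4. Both arrays numbered 4 lay outside the software's quality limits, and both arrays numbered 5 were scanned in a second scan. Controls lay in slide columns 1 and 3 and Klf4 arrays in columns 2 and 4, so column and group cannot be told apart. All 15 photoreceptor markers with a probe and all 10 progenitor and Muller glia markers were measured. So were 4 of 5 lens markers, so being measured is a weak check of the retinal label. The probe of Klf4 itself read -3.87, -2.45, -3.58 and -3.18 on the controls and -3.70, -1.74, -3.36 and -3.19 on the Klf4 arrays, normalised log2. These groups overlapped, and because it is not known whether the probe reads the plasmid's transcript, it does not check the labels. Across the 29988 genes and unnamed features tested with limma, 961 were higher and 140 lower with Klf4 at a Benjamini-Hochberg adjusted p under 0.05, and the median log2 difference was -0.07.

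Cacna2d4, the alpha2delta subunit of photoreceptor channels, was lower on every Klf4 array than on any control array. Its normalised log2 signal was -3.70, -4.11, -3.96 and -3.79 on control replicates 2 to 5, a mean of -3.89 ± 0.18 (SD, n = 4). On Klf4 replicates 2 to 5 it was -5.44, -5.24, -5.85 and -5.06, a mean of -5.40 ± 0.34 (SD, n = 4). The difference was -1.50 (SE 0.19) on the log2 scale, which put the Klf4 signal at 35.3% of the control signal, a 2.84-fold lower level. The groups did not overlap, as was so in the lower direction for 4.47% of the features compared, and 0.467% of the features tested were lower past the threshold. Because this contrast chose the gene, nothing is read from its place among them. The probe, A_44_P461917, matched transcript NM_001191751 and had 1 spot per array. In bulk RNA, fewer cells of a type and less RNA per cell cannot be told apart.

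**Figure D1:**
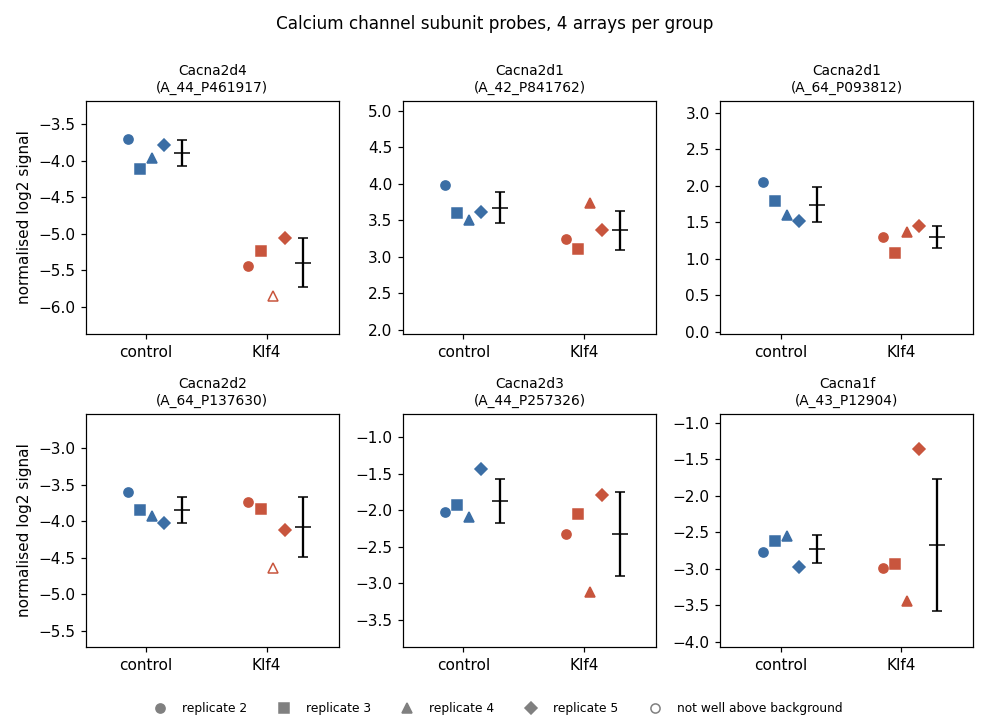
Normalised log2 signal of the 6 probes on each array, control in blue and Klf4 in red, with the mean and SD of 4 arrays as a black bar; each panel has its own vertical axis, open symbols are spots not well above background, and symbol shape gives the replicate number. Cacna2d4 separates into -4.11 and above on the controls and -5.06 and below with Klf4, the second Cacna2d1 probe separates by less, and the other 4 probes overlap between the groups.

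The Cacna2d4 spot was dim. Its background-subtracted signal was 114, 99.4, 79.2 and 52.9 intensity units on the controls and 36.1, 37.0, 25.4 and 23.6 on the Klf4 arrays. The median pixel of the spot was 2.98 to 3.22 times its local background on the controls and 1.68 to 2.05 times on the Klf4 arrays, again with no overlap. All 4 controls and 3 of the 4 Klf4 arrays were flagged well above background, the exception being Klf4 replicate 4, which also had the lowest normalised value. Without that array the difference was -1.35, and without both arrays numbered 4 it was -1.38. It was -1.58 within the first scan, with 3 arrays per group, and -1.27 within the second, with 1 per group. The authors' deposited log2 values gave -1.44, from 6.20 to 6.63 on the controls and 4.69 to 5.15 with Klf4. With normexp background correction the difference was -0.66; that method adds an offset of 50 to each signal, above the Klf4 signals of this spot.

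Cacna2d1, the widely expressed alpha2delta subunit and a binding site of gabapentin, was read by 2 probes, matched to the transcripts NM_012919 and NM_001110848. The brighter probe, A_42_P841762, read 3.98, 3.59, 3.51 and 3.61 on control replicates 2 to 5 and 3.24, 3.11, 3.73 and 3.36 on Klf4 replicates 2 to 5. Klf4 replicate 4 lay above 3 of the controls, so the groups overlapped. The difference was -0.31 (SE 0.18, 95% interval of the fit -0.72 to 0.09) and did not pass the threshold (limma, adjusted p = 0.588). Without Klf4 replicate 4 it was -0.44, still short of the threshold (limma, adjusted p = 0.175).

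The other Cacna2d1 probe, A_64_P093812, read 2.05, 1.79, 1.59 and 1.51 on the controls and 1.30, 1.08, 1.36 and 1.44 on the Klf4 arrays. Here every Klf4 array was below every control, as was so for 4.47% of the features compared, although the highest Klf4 and lowest control were close. Its difference was -0.44 (SE 0.16), and it too missed the threshold when p-values were adjusted over all probes (limma, adjusted p = 0.274). Most of it came from the first scan, where the difference was -0.56 against -0.07 in the second. Both probes thus had a lower mean with Klf4, by amounts within 1 SE of each other, and neither change passed the test.

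Cacna2d2, the other gabapentin-binding alpha2delta subunit, known for its part in cerebellar neurons, was read by probe A_64_P137630. It gave -3.60, -3.84, -3.93 and -4.02 on the controls and -3.73, -3.83, -4.64 and -4.12 on the Klf4 arrays. Klf4 replicate 4 was the lowest array and was not well above background, and the groups otherwise interleaved. The difference was -0.23 (SE 0.21, 95% interval -0.72 to 0.26; limma, adjusted p = 0.788), and -0.05 without Klf4 replicate 4.

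Cacna2d3, a neuronal alpha2delta subunit with roles in synapse function and hearing, was read by probe A_44_P257326. It gave -2.03, -1.92, -2.09 and -1.43 on the controls and -2.32, -2.05, -3.12 and -1.79 on the Klf4 arrays. The groups overlapped, with control replicate 5 highest and Klf4 replicate 4 lowest. The difference was -0.45 (SE 0.29, 95% interval -1.12 to 0.21; limma, adjusted p = 0.661), and -0.19 without Klf4 replicate 4.

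Cacna1f, the pore subunit that works with Cacna2d4 in photoreceptors, did not have a lower mean with Klf4. Its probe, A_43_P12904, gave -2.77, -2.62, -2.54 and -2.97 on the controls and -2.98, -2.93, -3.43 and -1.36 on the Klf4 arrays. Klf4 replicate 5 was the highest of the 8 arrays, Klf4 replicates 2 and 3 lay within 0.05 of the lowest control, and Klf4 replicate 4 was the lowest of all. The difference was 0.05 (SE 0.40, 95% interval -0.87 to 0.97; limma, adjusted p = 0.987). Its direction rested on the second scan: the difference was -0.47 within the first scan and 1.61 between the pair of arrays in the second. Without Klf4 replicate 5 it was -0.39 (limma, adjusted p = 0.498).

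Among the 4 genes measured other than Cacna2d4, Cacna2d1, Cacna2d2 and Cacna2d3 had a mean below the controls and Cacna1f did not. Over all features tested, 61.0% had a mean below the controls. Cacna2d4 is not counted here, because its fall chose the set. The median difference of the 4 genes other than Cacna2d4 was -0.27, beside -0.07 for all features. None of the 4 genes other than Cacna2d4 passed the threshold in limma, where 3.67% of all features did, and 0 had an unadjusted p under 0.05 on the probe that stood for the gene. The second Cacna2d1 probe had an unadjusted p of 0.0231 (limma). Klf4 replicate 4 was the lowest array for Cacna2d2, Cacna2d3, Cacna2d4 and Cacna1f and the highest Klf4 array for the brighter Cacna2d1 probe. This 1 array set much of the Klf4 spread of the 4 alpha2delta genes, but on the second Cacna2d1 probe it lay inside the Klf4 range. For Cacna1f, Klf4 replicate 5 weighed more. The SE went from 0.40 to 0.19 without Klf4 replicate 5, and to 0.39 without Klf4 replicate 4.

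**Figure D2:**
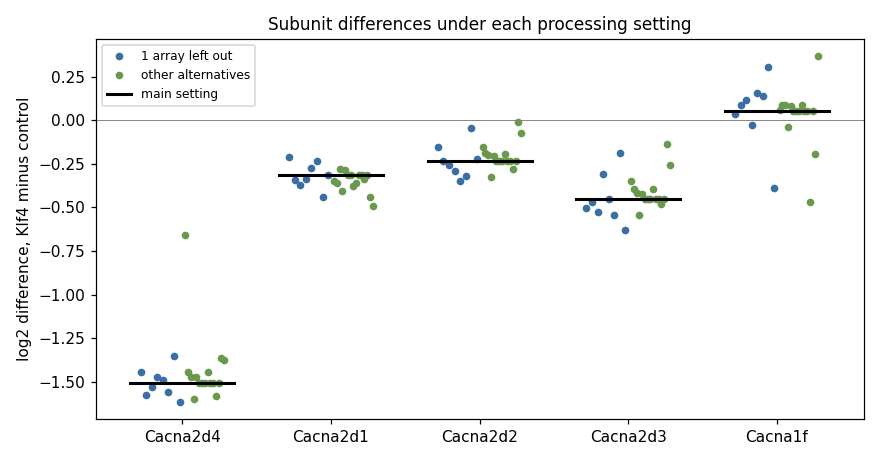
Log2 difference, Klf4 minus control, of each of the 5 genes in the main setting (black line) and in 23 alternatives, 8 that leave out 1 array (blue) and 15 others (green). The 4 alpha2delta genes stay below 0 in every alternative and Cacna1f lies on both sides of 0; the single Cacna2d4 point at -0.66 is normexp background correction.

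Of the other pore subunits, 6 of 8 were measured and none passed the threshold in either direction (limma; 1 had an unadjusted p under 0.05), with a median difference of 0.24. Cacna1h, a T-type pore that opens near the resting potential, had the largest difference among the probes that stood for a gene. It read 1.66, 1.87, 1.71 and 0.87 on the controls and 2.64, 2.80, 2.93 and 1.74 on the Klf4 arrays. Within each scan the Klf4 arrays were above the controls, but over all 8 arrays Klf4 replicate 5 fell inside the control range. The difference was 1.0 (SE 0.31) and did not pass (limma, adjusted p = 0.179). It was 1.04 within the first scan and 0.87 within the second, and it passed in 5 of 23 alternatives, with the scan as a block among them (limma, adjusted p = 0.0031). Cacna1c, the L-type pore of heart and brain, followed with 0.29 (SE 0.16; limma, adjusted p = 0.592). The probes of Cacna1b, the N-type pore of presynaptic terminals, disagree: the probe with the highest mean gave 0.01 and the other kept probe 1.05; it was named after its values were seen.

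None of the 3 beta subunits measured, of 4 listed, passed (limma; 1 had an unadjusted p under 0.05), and their median difference was 0.24. Cacnb1, best known from skeletal muscle, had a difference of 0.65 (SE 0.23; limma, adjusted p = 0.268), and its other kept probes gave 0.68 and -0.25, so its probes disagree. Cacnb3, a neuronal beta subunit, had 0.24 (SE 0.13; limma, adjusted p = 0.573).

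The gamma subunits and their relatives, several of which are AMPA receptor partners rather than channel subunits, gave no call among 7 measured of 8 (limma; 1 had an unadjusted p under 0.05), with a median of -0.17. Cacng3, an AMPA receptor partner, had the widest difference, -1.63 (SE 0.65; limma, adjusted p = 0.346). It ranged from -4.17 to -1.28 on the controls and from -5.69 to -3.83 on the Klf4 arrays, so the groups overlapped, and it was not well above background on Klf4 replicates 4 and 5. The difference was -0.70 within the first scan and -4.41 within the second, and -1.0 without control replicate 5. Cacng8, of the same kind, had -0.32 (SE 0.36; limma, adjusted p = 0.836), and 0.08 without Klf4 replicate 4.

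Among 11 listed regulators of the channels, 8 were measured and none passed (limma; 1 had an unadjusted p under 0.05), with a median of -0.18. Cabp1, a calmodulin-like protein that slows channel inactivation, had -0.88 (SE 0.53; limma, adjusted p = 0.623), and -0.53 without control replicate 3. Rem2, a GTPase that inhibits the channels, was the single regulator whose groups did not overlap. It read -1.47 to -1.36 on the controls and -1.98 to -1.66 with Klf4. No overlap in the lower direction was seen for 4.47% of the features compared. The Rem2 difference of -0.37 (SE 0.12) did not pass (limma, adjusted p = 0.198). Cabp4, the calmodulin-like partner of the photoreceptor channel, had a difference of -0.02 (SE 0.16; limma, adjusted p = 0.992); it was named for its link to Cacna1f after its value was seen.

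Comp, a thrombospondin of the extracellular matrix, was higher with Klf4, where 3.2% of all features were. Thrombospondins are secreted proteins known to bind Cacna2d1, and 2 of the 5 listed were measured. Comp read -2.44, -2.98, -3.18 and -3.08 on the controls and -1.08, -2.11, -1.99 and -0.95 on the Klf4 arrays, with no overlap between the groups, as was so in the higher direction for 5.74% of the features compared. The difference was 1.38 (SE 0.31), 2.61-fold, just past the threshold (limma, adjusted p = 0.0476). It was 1.14 within the first scan and 2.13 within the second. The call was lost in 14 of 23 alternatives, among them leaving out any 1 of the 4 controls or Klf4 replicate 2 or 5 (limma, adjusted p from 0.0196 to 0.222 over the alternatives). Thbs3, the other thrombospondin measured, had 0.19 (SE 0.18; limma, adjusted p = 0.788) and a dimmer probe at -0.49, so its probes disagree.

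Of 19 genes of the photoreceptor ribbon synapse, where Cacna1f and Cacna2d4 act, all were measured and 1 fell, where 0.467% of all features did; none rose. That gene was Cplx3, a complexin that holds and times vesicle fusion at ribbon synapses. It read -1.97, -2.19, -2.36 and -1.68 on the controls and -3.46, -3.01, -2.96 and -3.75 on the Klf4 arrays, with no overlap between the groups, as for 4.47% of the features compared in this direction. The difference was -1.24 (SE 0.23), 2.36-fold lower (limma, adjusted p = 0.0193), and the groups were apart in both scans, by -0.97 in the first and -2.07 in the second. The call was lost in 6 of 23 alternatives, among them no scaling between arrays (limma, adjusted p = 0.448), the first scan alone (limma, adjusted p = 0.0695) and leaving out control replicate 2 (limma, adjusted p = 0.0738), control replicate 3 (limma, adjusted p = 0.0519) or Klf4 replicate 2 (limma, adjusted p = 0.0763).

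The other 18 synapse genes did not pass, and the median of the list was -0.17. Elfn1, an adhesion protein by which rods contact bipolar cells, had a difference of 0.98 (SE 0.48; limma, adjusted p = 0.497), with control replicate 5 far below the other controls, and 0.50 without that array. Dlg4, a scaffold protein of synapses, had -0.80 (SE 0.47; limma, adjusted p = 0.614), and -0.31 without Klf4 replicate 4. Its spot was not well above background on control replicate 5 and Klf4 replicates 4 and 5. Ctbp2, whose RIBEYE form builds the ribbon, had -0.10 (SE 0.15), and Bsn, which anchors the ribbon, had 0.08 (SE 0.16). Both were named for that role after their values were seen. Over all 6 lists, 45 of 55 genes were tested, 1 was higher and 1 was lower, where 3.2% and 0.467% of all features were. The median difference was -0.10, close to the -0.07 of all features.

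**Figure D3:**
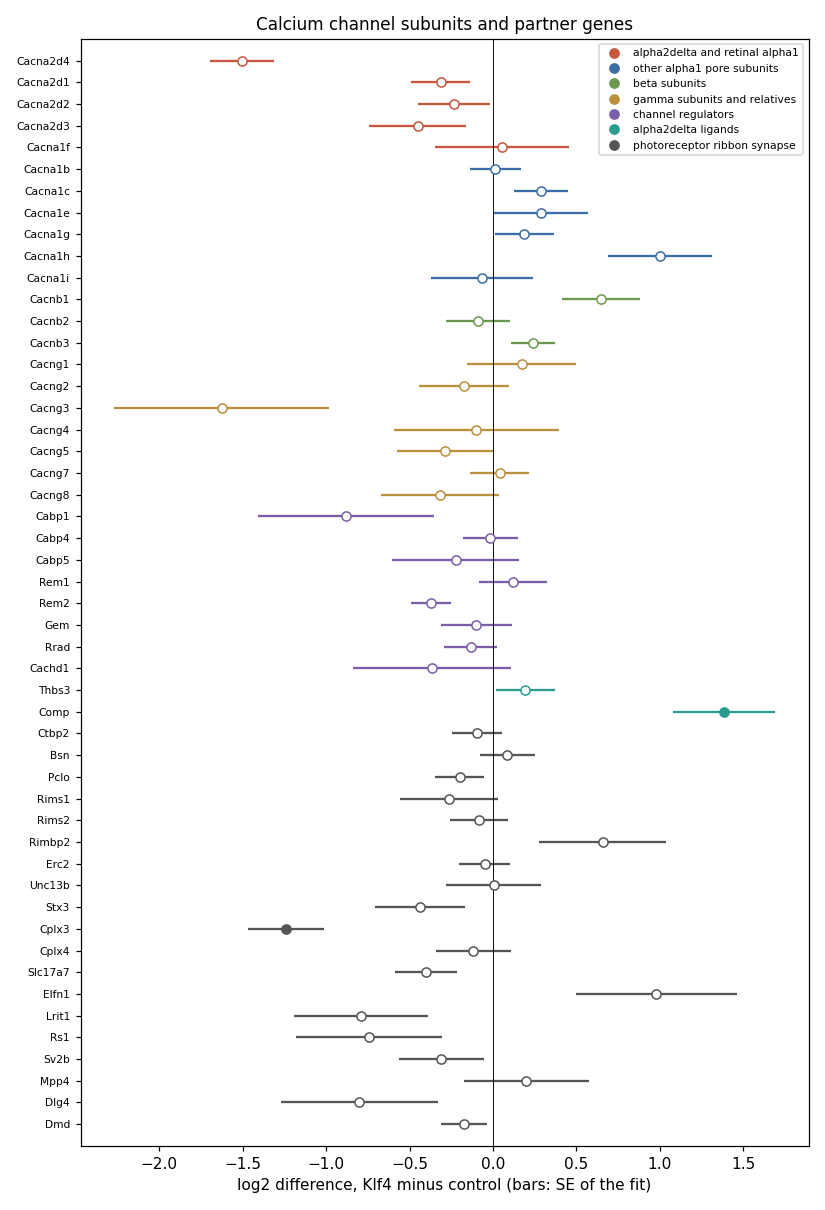
Log2 difference, Klf4 minus control, of the alpha2delta and retinal alpha1 genes and of the 45 listed partner genes tested, with the SE of the fit as a bar and the list as a colour. Filled circles passed the threshold, Comp at 1.38 and Cplx3 at -1.24; open circles did not pass or, for Cacna2d4 at -1.50, were not tested.

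Markers of photoreceptors were lower in mean on the same arrays. Of 15 photoreceptor markers measured, of 16 listed, 3 fell, where 0.467% of all features did, and 14 had a mean below the controls, where 61.0% of all features did. Their median difference was -0.57, beside -0.07 for all features. Crx, a transcription factor of rods and cones, read 1.26, 0.89, 1.22 and 1.24 on the controls and 0.42, 0.27, -0.08 and 0.63 on the Klf4 arrays, a difference of -0.84 (SE 0.18; limma, adjusted p = 0.0378). This call was lost in 13 alternatives, among them leaving out any 1 control array or Klf4 replicate 2 or 3. Rbp3, a retinoid-binding protein secreted by photoreceptors, read 3.14, 2.91, 2.98 and 2.53 on the controls and 2.03, 1.86, 1.90 and 1.39 with Klf4, a difference of -1.10 (SE 0.19; limma, adjusted p = 0.0154). The Rbp3 call was lost in 5 of 23 alternatives. These were leaving out control replicate 2, 3 or 4 (limma, adjusted p = 0.0604, 0.0558 and 0.0623), no scaling between arrays (limma, adjusted p = 0.888) and leaving out both arrays numbered 4 (limma, adjusted p = 0.0728). The third, Rxrg, a nuclear receptor of cones, had -0.69 (SE 0.16; limma, adjusted p = 0.0496). It was only just past the threshold, and its call was not followed over the alternatives.

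**Figure D4:**
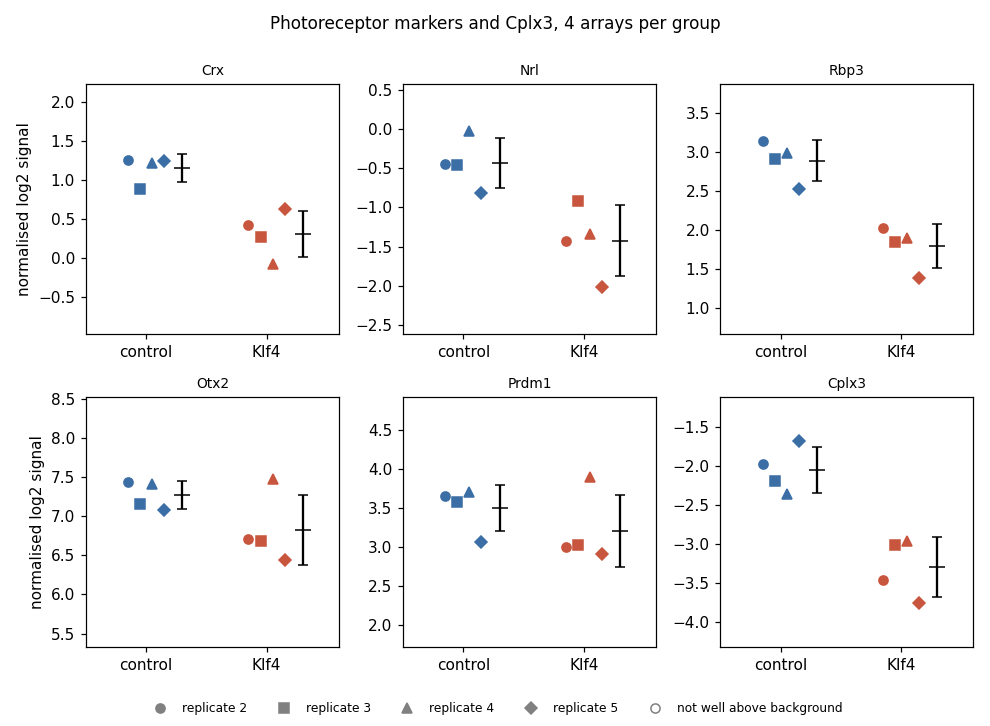
Normalised log2 signal of 5 photoreceptor markers and of Cplx3 on each array, control in blue and Klf4 in red, with the mean and SD of 4 arrays as a black bar; each panel has its own vertical axis and symbol shape gives the replicate number. Crx, Nrl, Rbp3 and Cplx3 do not overlap between the groups, while Otx2 and Prdm1 overlap through Klf4 replicate 4.

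Nrl, the factor that directs cells to the rod fate, had no overlap and a difference of -0.99 but did not pass (SE 0.25; limma, adjusted p = 0.0874). Otx2 and Prdm1, which act earlier in photoreceptor precursors, had -0.44 (SE 0.23) and -0.29 (SE 0.25), and both had Klf4 replicate 4 above every control. Without that array Otx2 was at -0.66 and passed (limma, adjusted p = 0.0373), and Prdm1 was at -0.52 and did not (limma, adjusted p = 0.176). With array weights both passed, at -0.64 (limma, adjusted p = 0.0081) and -0.61 (limma, adjusted p = 0.0095). The summed level of the photoreceptor list, the log2 of its added normalised signals, was 7.62 to 7.97 on the controls and 6.97 to 7.92 on the Klf4 arrays. Bright probes weigh most in such a sum, and without Otx2, its brightest, it was 5.94 to 6.32 on the controls and 5.26 to 6.01 on the Klf4 arrays. Cacna2d4, Cplx3, Crx and Rbp3 thus had no overlap between the groups, while Cacna1f overlapped, and the part of photoreceptor content in the Cacna2d4 value was not tested.

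Bipolar markers kept in the test also had lower means on these arrays, most by little. Of 6 measured, of 8 listed, 1 fell, where 0.467% of all features did. It was Lhx4, at -0.91 (SE 0.17; limma, adjusted p = 0.0217). The other 5 did not pass and lay between -0.22 and -0.13. All 6 had a mean below the controls, where 61.0% of all features did. Their median was -0.19, beside -0.07 for all features. The summed level was 3.36 to 3.59 on the controls and 2.74 to 3.01 with Klf4, but without Lhx4, its brightest probe, it was 2.30 to 2.66 and 2.02 to 2.50, which overlap. Its part in the result was not tested either. Vsx1, a bipolar transcription factor, was not well above background on any control, where it read -7.38 to -6.89, and was so on 2 of 4 Klf4 arrays, where it read -5.74 to -4.90, too few to be kept in the test. In the ganglion cell list 2 of 5 measured markers rose, Atoh7 and Nefm, where 3.2% of all features did, and Pou4f2, Isl1 and Rbpms did not pass. The summed level was 0.12 to 0.46 on the controls and 1.82 to 2.44 with Klf4, and without Atoh7, its brightest probe, -0.63 to -0.11 and 0.06 to 1.12. Amacrine and horizontal markers, 1 of 10 higher (Ptf1a), and progenitor and Muller glia markers, 0 of 10 past the threshold and 1 at an unadjusted p under 0.05 (limma), had summed levels that overlapped between the groups.

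The genes closest to Cacna2d4 in their profile over the 8 arrays were found by centring each gene on its mean and taking the root mean square difference, over 13594 other genes. They were Ntm, an adhesion molecule of the IgLON family (0.172 log2 units), LOC103692393 (0.194), Col14a1, a collagen of fibril surfaces (0.216), Stk32a, a kinase (0.224), and F2, prothrombin (0.227). Ntm was lower with Klf4 by -1.65, from -0.22 to 0.26 on the controls and -2.07 to -1.31 with Klf4. The other 4 had differences of -1.32, -1.44, -1.32 and -1.11, and Col14a1, Stk32a and F2 were, like Cacna2d4, not well above background on Klf4 replicate 4. These genes were picked by likeness to a chosen gene and were not tested. The nearest member, Cacna2d3, ranked 486 at 0.577, Cacna2d2 ranked 1874, Cacna2d1 2275 and Cacna1f 9379.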

How the data were processed

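Per the file headers, the deposited intensity values are Cy3 signals that Feature Extraction 10.7.3.1 subtracted for background and detrended, with no scaling across arrays; flags (unit other), also deposited, come from that software. The authors also deposited log2 values with equal medians, 7.54 in each column. Each column correlated with its own array, across probes, at 0.994 to 1.00. The scale is therefore log2, genes are not centred and the direction is that of the signals. The authors' method was not given in the sources used here, and quantiles other than the median were not compared. Of 58717 gene spots, 324 to 421 per array were dropped as outliers and none was saturated. Probes were named through RefSeq transcripts (GRCr8 table; 21109 of 45598 had a symbol). Spots of a probe were averaged as log2, and each array's 75th percentile over probes was subtracted. A probe was kept where well above background on at least 3 of 4 arrays of a group; the kept probe with the highest mean stood for the gene. Groups were compared with limma 3.58.1 in R 4.3.3, two-sided, adjusted over all 29988 features; the fit was tested on simulated data. Normexp used median signals. Precision is limited by the number of arrays. The genes and lists were chosen with earlier results of these data known. Named were the 6 genes, listed genes past the threshold, the 2 largest differences short of it per list, the 5 profiles closest to Cacna2d4, 6 markers and Klf4; other names were chosen after their values were seen.

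Alternatives were background correction, scaling, filter, probe choice, the authors' values, blocks, array weights and leaving out arrays. Past the threshold in limma, 1 of 6 microglia markers (C1qb) and 2 of 4 endothelium markers (Tek and Esam) were higher. So were 1 of 5 pericyte markers (Cspg4) and 1 of 3 astrocyte markers (S100b), where 3.2% of all features were. The other markers measured in these lists did not pass. Esam was well above background on 0 controls and 3 Klf4 arrays, and S100b on 2 controls and 4 Klf4 arrays. Both were kept only through the group where they were high, so nothing is read from their calls. Pigment epithelium (0 of 1), lens (0 of 4) and red blood cell markers (0 of 2) had no call and 0 at an unadjusted p under 0.05 (limma). No marker of any of these lists was lower past the threshold. Figures were drawn with matplotlib 3.10.9.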

Additional observations from a re-analysis of the deposited data

Results flagged for a closer look

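In groups of 4 arrays, a value was singled out when its gap to the nearest other took up more of the group's range than Dixon's critical value allows. Of 60 groups examined, 3 held such a value, and chance gives about 1 in 20. Elfn1 read -4.34 on control replicate 5, the next control being at -2.64. Crx read 0.892 on control replicate 3, the next at 1.22. Prdm1 read 3.89 on Klf4 replicate 4, the next at 3.02. None of the 6 calcium channel probes held such a value.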

How the results depend on the processing

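Over 23 alternatives, Cacna2d1, Cacna2d2, Cacna2d3 and Cacna2d4 kept their direction, with Cacna2d1 from -0.49 to -0.21, Cacna2d2 from -0.35 to -0.0084 and Cacna2d3 from -0.63 to -0.14, the values nearest 0 of the last 2 coming from array weights, and no gene of the set other than Cacna2d4, which was not tested, passed the threshold. Cacna2d4 ranged from -1.62 to -1.35 with 1 array left out and moved to -0.66 under normexp. Cacna1f reversed to -0.042 with the percentile taken over spots, -0.47 in the first scan alone, -0.20 with array weights, -0.03 without control replicate 5 and -0.39 without Klf4 replicate 5, its range with 1 array left out being -0.39 to 0.31. Over all features, 961 higher became 526 with no scaling, 635 in the first scan and 1846 with array weights, and 604 to 1221 with 1 array left out (604 without Klf4 replicate 2). The 140 lower became 93 with the array median, 2 with no scaling, 70 with no filter, 255 with the scan as a block, 48 in the first scan, 1269 with array weights, and 32 to 406 with 1 array left out (32, 41 and 50 without control replicates 2, 3 and 4; 38, 68, 406 and 57 without Klf4 replicates 2, 3, 4 and 5). The share of calls that were higher, 87.3%, became 99.6% with no scaling, 59.3% with array weights and 75% without Klf4 replicate 4. The 1 listed gene that was higher became 0 under normexp, the spot percentile, no scaling, no filter, the slide row as a block and without both arrays numbered 4, and 2 with array weights; with 1 array left out it was 0 to 1. The 1 listed gene that was lower became 0 with no scaling and in the first scan, 3 with array weights and 2 with the scan as a block; with 1 array left out it was 0 to 1. Comp lost its call and Cacna1h gained one with the scan as a block, in the first scan and without Klf4 replicate 5. The percentile over spots moved the median of all differences from -0.07 to -0.16. The causes were not tested. Normexp on median signals, the spot percentile and the marker sums without their brightest gene were chosen after seeing the data. On Klf4 replicate 4 the spots of Cacna2d4 and Cacna2d2 were not well above background.

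With the replicate number as a block, 842 features were higher and 101 lower, 2 listed genes were higher (Comp and Cacna1h) and 0 lower, Cplx3 being lost (limma, adjusted p = 0.0926), and Cacna2d4 kept its difference of -1.50. Same-numbered arrays deviated together with correlations of 0.355, 0.243, 0.0608 and 0.551, and number 4 did not match best with its own, so the numbers are not shown to pair the samples. The block changed no call of the members.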
